A study of Mus musculus with 6 samples.

Results

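The genes described here encode the proteins of the cytosolic and of the mitochondrial ribosome, as listed in a table of genes from fetal and adult mouse Leydig cells. They were taken by name: symbols that begin with Rps, Rpl or Rplp and a digit, or Rpsa, gave the cytosolic set, and symbols that begin with Mrps or Mrpl and a digit gave the mitochondrial set. The 8 ribosomal S6 kinases, which share the first letters but are signalling enzymes, were left out. The rule found 99 of the 10580 genes in the table, 46 of them cytosolic and 53 mitochondrial.

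The cells were Nr5a1-GFP positive cells sorted from testes of male (XY) mice of the genotype Nr5a1 Tg, in which the promoter of Nr5a1, a gene active in steroid-producing cells and also in Sertoli cells, drives the fluorescent protein. Fetal Leydig cells (FLCs) came from embryos at E18.5 (3 libraries) and adult Leydig cells (ALCs) from animals at P100 (3 libraries), and both groups carried the transgene. Cells were pooled from several independent experiments at each stage. The authors' methods name a kit for total RNA depleted of ribosomal RNA, whereas their results speak of poly(A)+ RNA. The level given for each gene is the authors' mean over all 6 libraries of read counts divided by size factors, so FLCs and ALCs stand together in it and it has neither a spread nor a number of replicates per stage. The values below therefore describe levels and make no comparison of stages, and the depth of single libraries is unknown. All 10580 genes had an adjusted p below 0.05 in the authors' comparison of stages, so a ribosomal protein gene outside the table is not analysed here.

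Ribosomes translate messenger RNA into protein with a small subunit that reads the codons and a large subunit that joins the amino acids. Cytosolic ribosomes make nearly all proteins of the cell, whereas those in mitochondria, encoded by a different set of nuclear genes, make a few core proteins of the respiratory chain. Leydig cells start steroid synthesis inside mitochondria, where Cyp11a1 cleaves cholesterol. Messages of cytosolic ribosomal proteins usually begin with a run of pyrimidines, the TOP element, through which mTOR and Larp1 control their translation, and their genes have left many processed pseudogenes in mammalian genomes.

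The 5 Leydig markers were all in the table and near its top. The authors' mean normalized count was 283675 for Cyp17a1, 258458 for Insl3, 231185 for Cyp11a1, 165076 for Hsd3b1 and 87502 for Star. Markers of other testis cells stood far lower. The Sertoli cell markers Amh and Dhh had means of 137 and 89.0, the germ cell marker Ddx4 184, the endothelial marker Esam 102, the progenitor marker Tcf21 216, and the immune markers Csf1r, Emr1 and Cxcl2 982, 177 and 11.6. Of 3 markers each, 2 were listed for Sertoli, 1 for germ and 1 for endothelial cells, 3 for immune cells and 0 for peritubular myoid cells. Listing depends on the authors' comparison of stages, in which 47.6% of annotated protein-coding genes were listed. A marker that is not listed has no level here, so this tally does not measure the purity of the cells.

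Among the 46 cytosolic genes the mean normalized count had a median of 685, beside 679 over all 10580 genes, and 23 of the 46 lay above the median of all genes. Divided by the length of all annotated exons, a rough allowance for gene length, the median of the cytosolic genes was 503 per kb. Over all genes it was 147 per kb, and 35 of the 46 lay above that. With the length of the coding transcript the medians were 1215 and 241 per kb. The levels spread over a wide range. The highest mean count, that of Rpl4, was 600-fold the lowest, that of Rpl10l, and the upper quartile (2234) was 5.61-fold the lower (398). The 3 genes with most counts held 38.9% of the counts of the set and the first 10 held 75.05%.

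Mitochondrial ribosomal protein genes formed a tighter group between their quartiles. The 53 genes had a median mean count of 1012, with quartiles of 850 and 1509 that differ 1.78-fold, and 46 of the 53 lay above the median of all genes. Per kb of exon their median was 442, with 47 above the median of all genes. The quartiles per kb differ 3.33-fold, beside 8.98-fold in the cytosolic set. From lowest to highest the mitochondrial counts spread 97.7-fold. Per kb that range was 279-fold, close to the 306-fold of the cytosolic set. The set held 0.278% of all normalized counts in the table, and the cytosolic set 0.540%. Small and large subunit genes of the mitochondrial ribosome had nearly the same median count, 1008 over 20 genes and 1012 over 33. In the cytosolic set the 13 small subunit genes had a median of 2164 and the 27 large subunit genes one of 622. The quartiles overlapped, reaching from 434 to 5688 for small and from 407 to 2017 for large subunit genes.

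**Figure D1:**
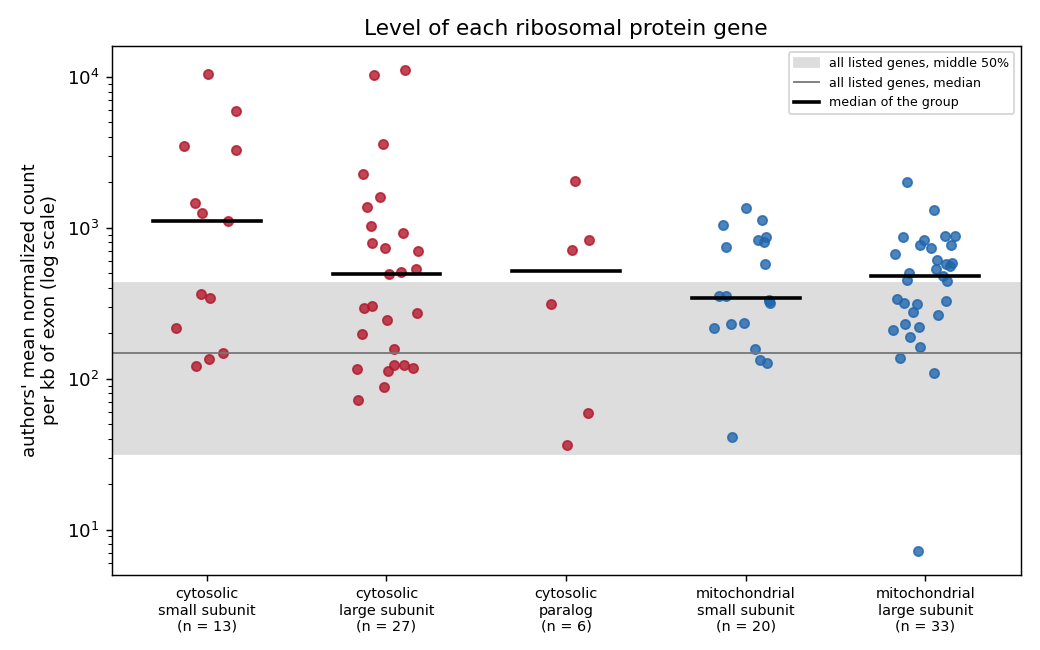
Level of every ribosomal protein gene, as the authors' mean normalized count per kb of exon on a log axis, with 1 point per gene, the group median as a black bar and the middle 50% of all listed genes in grey. Cytosolic genes reach from 36.3 to 11116 per kb, and 47 of the 53 mitochondrial genes lie above the grey line at 147 per kb.

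Rpl4, Rps15 and Rpl8 had the highest levels per kb of the cytosolic set. Rpl4, which lines the exit tunnel of the large subunit, had a mean normalized count of 22309, or 11116 per kb, and ranked 92nd by count among all genes of the table. It is encoded on chromosome 9 (64173375 to 64178666, plus strand, GRCm38) in 10 exons. Rps15, a protein of the small subunit head on chromosome 10 (80292453 to 80294114, plus strand), had 6596 counts and 10470 per kb. Rpl8, which touches the peptidyl transferase centre, is on chromosome 15 (76904078 to 76906314, plus strand) and had 14082 counts and 10362 per kb. All 3 lay at the 99.4th percentile of all genes per kb or above.

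The others among the first 10 that are named here spanned 1607 to 3583 per kb. They were Rpl13a (3583), the X-linked Rps4x (3487), Rps9 (3287) at the messenger entry channel, Rpl7 (2289), the Rps27 paralog Rps27l (2052) and Rpl22 (1607). At the other end Rpl10l stood at 36.3 per kb, Rpl39l at 58.8, Rpl35a at 72.3, Rpl36a at 88.2 and Rpl21 at 113. All 5 were below the median of all genes, 147 per kb of exon. Divided by the length of the coding transcript instead, Rpl10l (36.3) and Rpl39l (88.9) stayed below the median of all genes, which is then 241 per kb, whereas Rpl35a (519), Rpl21 (427) and Rpl36a (302) lay above it.

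**Figure D2:**
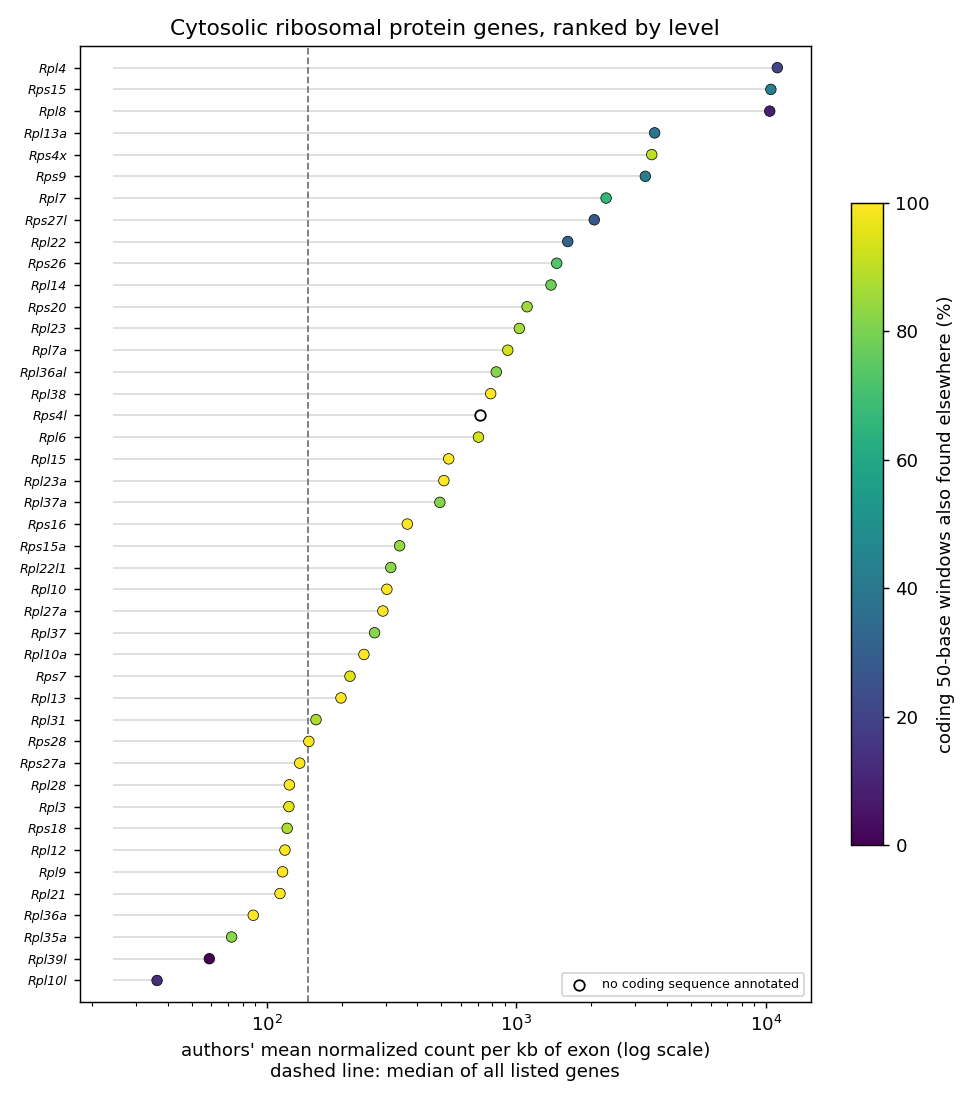
Of the 46 cytosolic ribosomal protein genes, 43 ranked by the authors' mean normalized count per kb of exon (log axis), coloured by the percentage of their coding 50-base windows that also occur elsewhere in the transcriptome. Dark points, with little shared sequence, fill most of the top from Rpl4 at 11116 per kb down, yellow points fill the lower part, and Rpl39l and Rpl10l are dark points at the bottom.

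Cytosolic genes with much sequence that is copied exactly elsewhere stood lower. Each coding sequence was read in windows of 50 bases, the read length of the libraries, and a window was counted as shared if it occurred without mismatch in a transcript of a gene at another place of the genome, pseudogenes included. Of the 45 cytosolic genes with a coding sequence, 35 (77.8%) had at least 50% of their windows shared, beside 347 of 10441 genes (3.32%) over the whole table and 3 of 53 (5.66%) in the mitochondrial set. The 10 cytosolic genes under that limit had a median mean count of 7086, and the 35 at or over it a median of 596. In 15 genes every coding window was shared. Their mean counts ran from 146 (Rpl36a) to 1325 (Rpl15) with a median of 428, beside a median of 356 over all 49 genes of the table with every coding window shared. Over all windows of the transcripts of the 15 genes, coding or not, the share ran from 9.18% (Rps28) to 50.1% (Rpl23a).

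Among the highest genes, Rpl8 had 8.73% of its coding windows shared, Rpl4 20.3%, Rpl13a 38.8%, Rps9 43.0% and Rps15 43.3%. Rps4x, at 90.1%, and Rpl7, at 66.8%, had high levels with much shared sequence. Rpl10l (12.5%) and Rpl39l (0%) broke the order the other way, as paralogs with little shared sequence and the lowest counts of the set (37.2 and 48.9). Spearman's rho between mean count and shared percentage was -0.51 across the 45 cytosolic genes and -0.42 across the 53 mitochondrial genes, and 0.04 across the 10441 genes of the table. With the level per kb it was -0.51, -0.25 and 0.08. These are correlations across genes, which share the same 6 libraries and are not independent replicates. How reads that fit several places were counted is not given in the sources used here, and its part in these levels was not tested. The kit marks strand. Copies on the opposite strand were counted as shared as well.

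**Figure D3:**
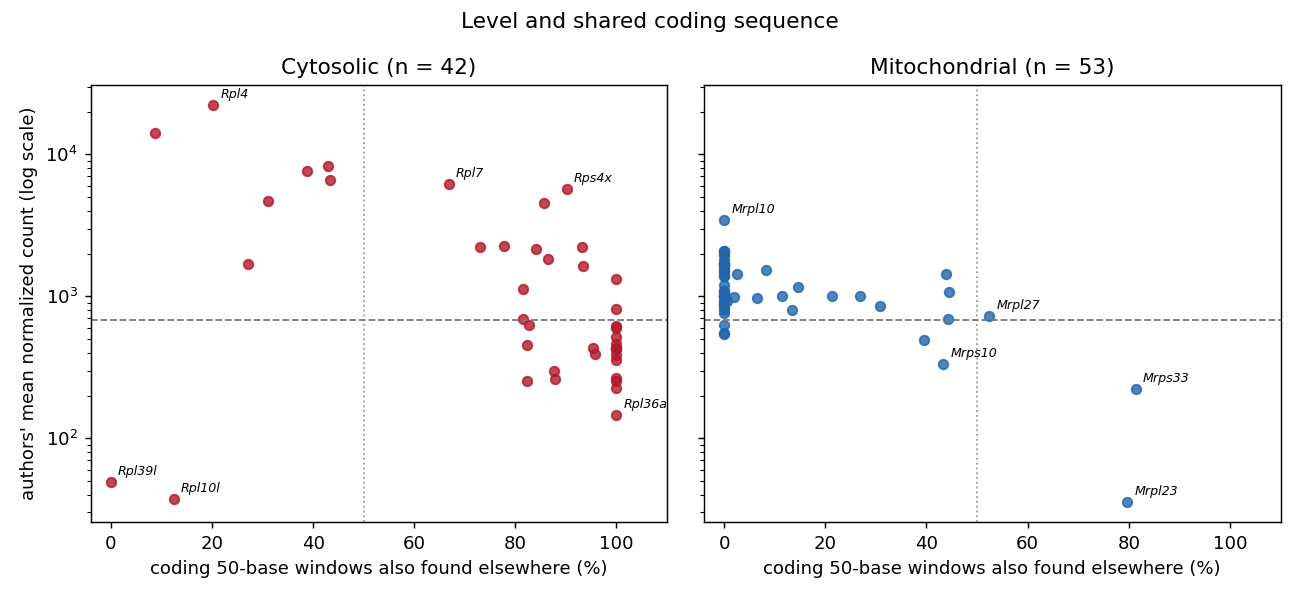
Authors' mean normalized count (log axis) against the percentage of coding 50-base windows found elsewhere, with 1 point per gene, for 42 of the 45 cytosolic genes with a coding sequence (left) and the 53 mitochondrial genes (right). The dashed line is the median of all genes (679) and the dotted line the limit of 50%; Mrps33 and Mrpl23 stand at the lower right, with 221 and 35.4 counts.

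Many of these copies are annotated pseudogenes. Counting those that hold at least 50 of a gene's windows and lie outside it, 43 of the 46 cytosolic genes had 311 copies in all, and 15 of the 53 mitochondrial genes had 15. Rpl21 had 54 and Rpl7a 52, more than any other, followed by Rpl15 with 16. Genes with more copies tended to have lower levels, less closely than with the shared percentage: Spearman's rho between level per kb and number of copies was -0.35 across the 46 cytosolic and -0.20 across the 53 mitochondrial genes. Rpl7a (52 copies) had a mean of 1645 counts, Rpl21 (54 copies) 384, and Rpl36a, with 1 such copy, 146. Copies annotated as protein-coding were not counted. Among them were Rpl36a-ps1, which shares 260 windows with Rpl36a, and Rpl10-ps3, which shares 691 with Rpl10.

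Rpl36a on chromosome X and its paralog Rpl36al on chromosome 12 are both protein-coding. The coding sequences are of the same length and were identical at 279 of 318 bases (87.7%). Rpl36a had 146 counts and Rpl36al 1124. The first 60 coding bases of both are shown to set the paralogs beside each other, with differing bases in capitals.
Rpl36a: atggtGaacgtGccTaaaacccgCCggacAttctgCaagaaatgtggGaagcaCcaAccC
Rpl36al: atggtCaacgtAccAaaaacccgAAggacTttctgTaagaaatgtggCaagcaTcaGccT
They differed at 11 of the 60 bases. All coding windows of Rpl36a occurred elsewhere, as did 81.4% of those of Rpl36al.

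Rpl10, whose protein joins the large subunit last, and the intronless Rpl10l, known for its role in male germ cells, were identical at 544 of 642 aligned bases (84.7%). Rpl10 had 622 counts with all windows shared and 9 pseudogene copies, and Rpl10l 37.2 counts. Their first 60 coding bases show 9 differences, in capitals.
Rpl10: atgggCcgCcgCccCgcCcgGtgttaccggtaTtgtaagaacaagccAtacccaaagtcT
Rpl10l: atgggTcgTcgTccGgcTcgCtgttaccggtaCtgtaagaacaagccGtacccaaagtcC
Rpl10l lies on chromosome 12 (66283379 to 66284401, minus strand, GRCm38) in a single exon. Rpl39l, another paralog known from the testis, is on chromosome 16 and had 48.9 counts.

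Rps4x on chromosome X stood at 3487 per kb and its paralog Rps4l at 715 per kb. Rps4l, which lies on chromosome 6, is annotated as a transcribed processed pseudogene in GENCODE vM21, and 628 of the 782 bases aligned with the coding sequence of Rps4x were identical (80.3%). The start of the aligned stretch differs at 7 of 60 bases.
Rps4x: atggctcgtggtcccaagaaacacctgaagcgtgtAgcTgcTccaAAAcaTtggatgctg
Rps4l: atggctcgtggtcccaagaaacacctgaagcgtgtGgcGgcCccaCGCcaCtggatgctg
Rpl22 (4678 counts) and Rpl22l1 (624 counts), which can replace each other in the ribosome, aligned over 294 bases with 75.9% identity. Rps27l, whose parent Rps27 was not in the table, was the paralog with the highest count, 1675. Over the 6 paralogs the counts ran from 37.2 to 1675.

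In the mitochondrial set Mrpl10, a protein at the base of the large subunit stalk, stood highest with 3456 counts and 2023 per kb. It lies on chromosome 11 (97041560 to 97049213, plus strand, GRCm38), and none of its coding windows was shared. Mrps21 followed with 1352 per kb, then Mrpl2 (1321), a protein of the catalytic core, Mrps28 (1120) and Mrps12 (1040), which lies at the decoding centre. Mrpl52, Mrpl14, Mrps7, Mrpl20 and Mrpl18 completed the first 10 with 833 to 888 per kb.

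The lowest mitochondrial gene was far from the rest. Mrpl23, at the tunnel exit, had 35.4 counts and 7.24 per kb, beside 41.2 per kb for Mrps10, 110 for Mrpl15, 127 for Mrps35 and 133 for Mrps33. By count the lowest were Mrpl23 (35.4), Mrps33 (221) and Mrps10 (333), and these had 79.7%, 81.4% and 43.3% of their coding windows shared. The first 2 have the highest shared percentages of the mitochondrial set. The third gene above 50%, Mrpl27, had 52.4%, 728 counts and 739 per kb, above the median of the set per kb. The 34 mitochondrial genes with no shared coding window ran from 544 to 3456 counts, none of them as low as these 3.

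Mrpl23 is on chromosome 7 (142532686 to 142540747, plus strand) and its processed pseudogene Mrpl23-ps1 on chromosome 2 (74591330 to 74591909, minus strand). Over the 421 coding bases that aligned, the pseudogene was identical to the gene (100%). The first 60 of them, coding bases 96 to 155 of Mrpl23, are printed once for each to show that no letter separates them.
Mrpl23: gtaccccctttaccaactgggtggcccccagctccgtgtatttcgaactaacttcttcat
Mrpl23-ps1: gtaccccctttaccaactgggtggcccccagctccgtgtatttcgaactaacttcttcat
Mrps33 and the processed pseudogene Gm5776 on chromosome 7 were identical at 317 of 318 bases (99.7%). As an example from the cytosolic set, Rps18 (296 counts) and Rps18-ps3 on chromosome 8 were identical at 453 of 456 bases (99.3%).

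**Figure D4:**
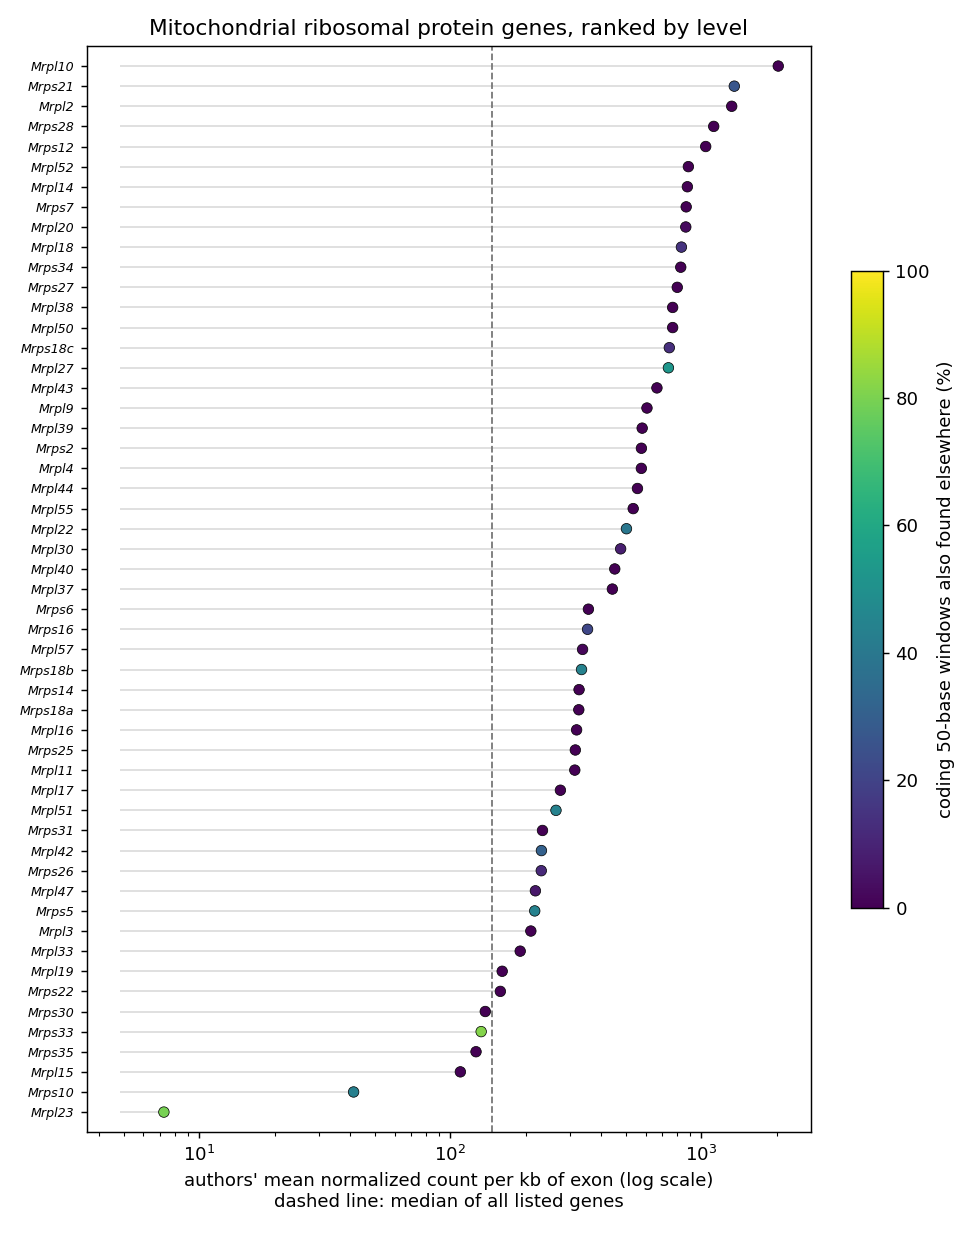
The 53 mitochondrial ribosomal protein genes ranked by the authors' mean normalized count per kb of exon (log axis), coloured by the percentage of coding 50-base windows found elsewhere. Most points are dark, as 34 genes have no shared coding window. Mrpl23 lies alone at 7.24 per kb.

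Level per kb and exon length of the mitochondrial genes had a Spearman's rho of -0.82 across 53 genes, whereas the mean count had one of 0.17. Exon length is the divisor of the level per kb, so such a negative rho is partly built in by the division. A gene with long annotated exons, such as Mrps35 with 8631 bases and 1093 counts, thus came low per kb without a low count. In the cytosolic set the rho of the level per kb with exon length was -0.23 over 46 genes.

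The sequence around transcript starts was read from RefSeq promoter windows of GRCm38, which hold 250 bases before and 50 after a start. A window was found for 35 of the 46 cytosolic and 46 of the 53 mitochondrial genes. Genes without one included Rpl8, Rpl7, Rps20, Rps4l, Rpl23a, Rps27a, Rpl3 and Rpl21, and, in the mitochondrial set, Mrps28, Mrps34, Mrpl38, Mrpl4, Mrpl19, Mrps35 and Mrpl15. A pyrimidine start, here a C within 5 bases of the annotated start that is followed by at least 5 further C or T, was present in 14 of 35 cytosolic genes (40.0%), 3 of 46 mitochondrial genes (6.52%) and 882 of 8145 genes of the table (10.8%). With the C allowed within 25 bases of the start the shares were 71.4%, 52.2% and 37.1%. The longest runs at the annotated start were those of Rpl27a (20 bases), Rpl15 (17), Rpl13a (14), Rpl7a (12) and Rps18 (11). The 3 mitochondrial genes were Mrpl11, Mrpl3 and Mrps33.

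The following starts belong to the 6 genes of each set with the highest level per kb among those with a window, 12 bases before and 18 from the annotated start on, with a pyrimidine run by the rule above in capitals.
Rpl4, chr9:64173375-64173404 (plus strand): cttttcctgtgggagcagccgggtagagag
Rps15, chr10:80292419-80292448 (plus strand): ggcagagctcgcgataactgcgcaagcgca
Rpl13a, chr7:45128728-45128757 (minus strand): accctgcgacaagaCCTCCTCCTTTCCCag
Rps4x, chrX:102189374-102189403 (minus strand): aggctgggcggagcaacccaggctccagcg
Rps9, chr7:3704029-3704058 (plus strand): gccttgtCTCTCTTTgtctcgggcctgagt
Rps27l, chr9:66946074-66946103 (plus strand): ctcctccccgccgcctctatcccggaagtt
Mrpl10, chr11:97041570-97041599 (plus strand): cgcgcagcgcgcatgggaacttcctgtagc
Mrps21, chr3:95871497-95871526 (minus strand): tcctcccgtcgcgggactccgtagcttccg
Mrpl2, chr17:46646217-46646246 (plus strand): gggaccgggaccggaacgtcatcccagagc
Mrps12, chr7:28741804-28741833 (minus strand): ctaaggaggaaccccggaaggggctggagg
Mrpl52, chr14:54426897-54426926 (plus strand): cggggccacgcccacttccggttcccttgc
Mrpl14, chr17:45686337-45686366 (plus strand): acggagaacccctggcgcgcaggcgcagcg
Of the 6 cytosolic starts, those of Rpl13a and Rps9 have a run by the rule, and of the 6 mitochondrial starts none has. With the C allowed within 25 bases, Rpl4, Rps15 and Rps27l also had a run and Rps4x did not, and in the mitochondrial set Mrpl10 and Mrps21 had one and Mrpl2, Mrps12, Mrpl52 and Mrpl14 did not.

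The 4 motifs below, none of which contains another, were searched on both strands of the same windows. The ETS motif CCGGAAG was in 11 of 35 cytosolic (31.4%) and 19 of 46 mitochondrial windows (41.3%), and in 1186 of 8145 windows of the table (14.6%). The core of the NRF1 motif, GCGCATGCG, was in 6 of 46 mitochondrial (13.04%) and 1 of 35 cytosolic windows (2.86%), beside 3.20% of the table. The 6 were Mrpl10, Mrpl9, Mrpl39, Mrpl22, Mrps18b and Mrpl17. The YY1 motif AAGATGGCG was in 2 cytosolic windows (5.71%), of Rpl13a and Rpl35a, and 4 mitochondrial windows (8.70%), beside 2.48%. The TATA motif TATAAA was in 3 cytosolic windows (8.57%), of Rpl22l1, Rps28 and Rpl36a, and in 1 mitochondrial window (2.17%), beside 7.61%. A match is a description of the letters and does not show binding.

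**Figure D5:**
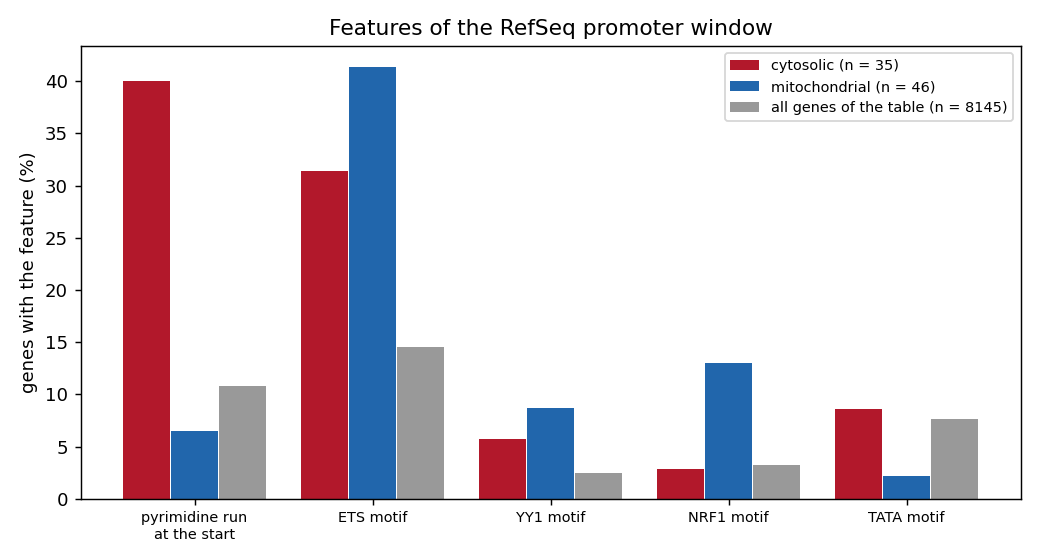
Percentage of genes whose RefSeq promoter window holds each feature, for 35 cytosolic genes, 46 mitochondrial genes and 8145 genes of the table. The pyrimidine run at the start is at 40.0% in the cytosolic set and 6.52% in the mitochondrial set; the ETS motif is at 31.4% and 41.3%.

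Small nucleolar RNAs, which guide the modification of ribosomal RNA, lie in the introns of many ribosomal protein genes. In these data 17 of 46 cytosolic genes (37.0%) had at least 1 annotated inside them, 35 in all, with 5 in Rpl4 and 4 in Rpl13a. None of the 53 mitochondrial genes had one, and 154 genes of the table did (1.46%).

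Not all subunits were in the table, in which a gene is listed if it was below the threshold of the authors' comparison. Of all 21951 protein-coding genes in GENCODE vM21, expressed or not, 10441 (47.6%) were listed; the share among genes the authors tested was not computed here. Of 80 cytosolic subunit genes, 41 were listed, 13 of 33 of the small and 28 of 44 of the large subunit, and 0 of the 3 stalk proteins Rplp0, Rplp1 and Rplp2. Fau and Rack1, which the name rule misses, were not listed. Of 82 mitochondrial subunit genes 58 were listed, 23 of 30 of the small and 35 of 52 of the large subunit. Beside the 53 these were Gadd45gip1 (3444 counts), Aurkaip1 (2066), Ptcd3 (1394), Ict1 (870) and Chchd1 (752), while Dap3 was not listed. Of 9 paralogs, 6 were listed.

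Of the genes that make and control cytosolic ribosomes, 29 of 39 were listed, and 23 of the 29 had a mean count above the median of all genes. The share of all annotated protein-coding genes, expressed or not, was 47.6%. No share among the genes the authors tested was computed, so the listed counts below are a description only. RNA polymerase I and its factors, which transcribe ribosomal RNA, had 10 of 11 genes listed, from Taf1a (212 counts) to Polr1a, the largest subunit (4732). Of 22 nucleolar and assembly factors 15 were listed, from Gar1 (322), a protein of the RNA modification complexes, to the nucleolar Npm1 (3052). Of 6 regulators of ribosomal protein messages 4 were listed, with a median of 3455 counts, above that of both ribosomal protein sets. Per kb of exon their median was 500, beside 503 for the cytosolic and 442 for the mitochondrial set. Larp1, which binds the TOP element, was highest at 7778, the kinase Mtor had 4955, and Eif4ebp1, a repressor of cap-dependent translation, was lowest at 1119. For mitochondrial ribosomes 6 of 15 assembly and RNA modification factors were listed, from Mtg1 (611) to Nsun4 (1141). The 8 S6 kinases left out by the rule ran from Rps6ka6 (91.9) to Rps6ka3 (3077).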

How the data were processed

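RNA of 3 FLC and 3 ALC libraries was sequenced by the authors in 50-base paired reads. As their methods and the labels state, the authors demultiplexed with CASAVA 1.8.2, mapped with GemTools and counted reads per gene on the GENCODE annotation of GRCm38. The authors dropped genes with under 10 reads, and the authors compared the stages with DESeq2. The deposited signal used here is a mean of size-factor-normalized counts that the authors took over the 6 libraries, without division by gene length. The deposited fold changes, standard errors, statistics and p-values of the authors' comparison were not used, except that the adjusted p-value was read to find that all 10580 genes were below 0.05. No stage comparison or test was made, since no values per library were at hand.

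Members and lists were chosen with earlier results of these data known. Genes were matched to GENCODE vM21 (GRCm38) by symbol (10206) or older symbol (300); 74 had no gene model, and all 99 members matched. Levels were divided by the union of annotated exons. Windows of 50 bases were searched on both strands of all GENCODE transcripts, with overlapping genes counted as 1 place, and 10441 genes had a coding sequence. The scripts were tested on simulated sequences and exons. Genes were named by a rule: the 10 highest and 5 lowest per kb of each set, all paralogs with their parents, subunits missed by name, the Leydig markers, and the highest and lowest gene of each other list. Some genes that this rule names are not reported here and are left out of the plots of single genes, but they are counted in the summaries of each set. Genes named for shared windows, promoter motifs or copies, and the other cell markers, were chosen after their values were seen. Promoters are from RefSeq, 1 per gene, at the start nearest to that of the GENCODE coding transcript. Python 3.11.15, pandas 2.3.3 and Biopython 1.88 were used.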

Additional observations from a re-analysis of the deposited data

How the results depend on the processing

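The level of the cytosolic genes depended on the length used and on the genes counted. The median per kb of exon union was 503 for cytosolic and 442 for mitochondrial genes, a ratio of 1.14. Without division by length the medians were 685 and 1012 and the ratio 0.678, so the order of the sets turned; the median exon length is 1810.5 bases in the cytosolic and 2703 in the mitochondrial set. With the longest transcript they were 702 and 622 (ratio 1.13), and with genes of at least 100 counts only, 524 and 447 (1.17). With subunits alone, paralogs left out, the values were the same. Chosen after seeing the data, the length of the coding transcript gave 1215 and 684 (1.78), and genes with under 50% of coding windows shared gave 3435 (10 genes) and 447 (50 genes), a ratio of 7.68. A wider search around the start raised the share of pyrimidine starts to 71.4% in cytosolic and 52.2% in mitochondrial windows. No paired analysis was possible because the level is a mean over all libraries, so neither replicate numbers nor left-out replicates could enter. Only genes below the threshold of the authors' comparison are listed, and the depth of a library is unknown.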
